A study of Mus musculus with 28 samples.

Results

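The STAT (signal transducer and activator of transcription) family in these data comprised 6 genes, *Stat2*, *Stat3*, *Stat4*, *Stat5a*, *Stat5b* and *Stat6*, which were taken by symbol from an RNA-seq table of 24089 genes, and all 6 were found. The cells were naïve CD4+ T cells from spleen and lymph nodes of *Tgfbr1* f/f *Ert2-cre*+ mice on a C57BL/6 background. Mice treated with oil served as wild type (WT), and mice treated with tamoxifen, which activates the Cre and deletes *Tgfbr1*, the gene of TGF-β receptor I, served as knockout (KO). The labels state oil or tamoxifen for the DNase-seq samples only. The RNA-seq samples are labelled WT or KO and were taken to be of the same line and treatment. The study also bred a *Cd4-cre* line and does not state which line gave the RNA-seq cells. All cells were stimulated through the T cell receptor (TCR) with anti-CD3 and anti-CD28. They received medium alone (control), 1 of the cytokines TGF-β and IL-4, or the pair together (TGF-β + IL-4), which the study uses as its Th9 condition. Each of the 8 conditions had 3 libraries, numbered 1 to 3 within a genotype by their labels. The number was taken as the mouse, with 3 mice per genotype, although the labels do not say that it names an animal. Male and female mice of 8 to 10 weeks were used in the study, but the sex of each mouse and the culture time of the RNA-seq samples are not given in the sources used here. *Ert2-cre* is not restricted to T cells, so KO cells of that line came from mice that could have lost the receptor in other tissues too.

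STAT proteins are latent in the cytoplasm. A cytokine receptor activates its Janus kinases (JAKs), the JAKs phosphorylate the STAT, and the STAT dimer enters the nucleus and binds DNA, commonly at the palindrome TTCNNNGAA. In CD4+ T cells STAT6 transmits the IL-4 signal towards Th2 and Th9 fates, STAT4 the IL-12 signal towards Th1 fate, STAT3 the IL-6 signal towards Th17 fate, STAT5A and STAT5B the IL-2 signal, and STAT2 the type I interferon signal. RNA-seq measures their transcripts and says nothing of their phosphorylation.

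The column headings of the RNA-seq table were in conflict with the read counts of the study's supplementary data. By the pattern of genes with 0 reads, the counts of 8 WT libraries (mice 1 and 3) each matched the column at the place of their library number, with at least 99.85% of genes at 0 in both or in neither, whereas only 2 of the 8 matched the column that carries their heading. The columns were therefore read in order of library number, which gave 20 of 24 columns a library other than that of their heading. Some of these columns kept their culture and changed only in replicate number. The 4 libraries of WT mouse 2 and all 12 KO libraries are not covered by those counts, so that their culture rests on this order alone. Under the headings as written, 0 of the 6 genes passed the test in any of 14 comparisons, and 0 of 9794 genes passed in each WT comparison. The relative depth of the columns ranged from 0.794 to 1.66, taking the third WT mouse under TGF-β + IL-4 as 1, with the lowest value in the second KO mouse under TGF-β + IL-4. The 6 T cell markers present in the table summed to between 800.3 and 1073 RPKM, and the markers of other cells to less: CD8 T cells 14.3 to 36.3 RPKM, red cells 0 to 21.9, myeloid cells 0.232 to 18.1, B cells up to 16.97 and NK cells 0.558 to 5.35. The part of other cells in the results was not tested. *Tgfbr1* rose to 14.1 ± 0.32 RPKM (SD, n = 3) with TGF-β and 19.2 ± 1.6 with TGF-β + IL-4 in WT cells and stayed at 3.995 ± 1.0 or less in the means of all KO cultures. WT control cells had 3.20 ± 0.15 and KO control cells 2.64 ± 0.37, and with IL-4 alone the values were 3.71 ± 0.23 and 3.28 ± 0.43. In both cultures without TGF-β the libraries of the genotypes overlapped. What differed was the rise of the transcript with TGF-β, which does not measure deletion, so the loss of the gene itself is not shown by this table.

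All positions are from GENCODE in mm9, the build of the deposited files. *Stat2* (chromosome 10, 127707629 to 127729905) and *Stat6* (chromosome 10, 127080042 to 127098013) lie on the plus strand. *Stat4* spans chromosome 1 from 52043992 to 52164032. The other 3 genes are neighbours on chromosome 11. *Stat5b* (100642045 to 100712038, minus strand) and *Stat5a* (100720665 to 100746483, plus strand) start 8626 bp apart and point away from each other, and the 3′ end of *Stat5a* overlaps that of *Stat3* (100746412 to 100800854, minus strand) by 72 bp. *Stat5a* and *Stat5b* are close paralogs, and the counting is not stated to use strand, so reads from shared sequence and from this overlap could have been lost or assigned to either gene.

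*Stat4*, *Stat5b* and *Stat3*, the longest genes of the family (120041, 69994 and 54443 bp), carried most of its DNase I hypersensitive sites (DHSs, stretches of open chromatin). They held 17, 13 and 8 of 45 sites, and the part of gene length was not tested. The following mm9 windows of 300 bp are each centred on a DHS summit and written along the gene's strand. Each holds a STAT-type palindrome in a DHS of a gene whose transcript changed below. Every window of the family with TTCNNNGAA is printed. Of those with TTCNNNNGAA only the *Stat5a* window is printed, and others in *Stat3*, *Stat4* and *Stat5b* are not shown. Capitals mark TTCNNNGAA in the first 3 and TTCNNNNGAA, the wider spacing preferred by STAT6, in the last.
Stat4 intron, chr1:52109856-52110155, plus strand: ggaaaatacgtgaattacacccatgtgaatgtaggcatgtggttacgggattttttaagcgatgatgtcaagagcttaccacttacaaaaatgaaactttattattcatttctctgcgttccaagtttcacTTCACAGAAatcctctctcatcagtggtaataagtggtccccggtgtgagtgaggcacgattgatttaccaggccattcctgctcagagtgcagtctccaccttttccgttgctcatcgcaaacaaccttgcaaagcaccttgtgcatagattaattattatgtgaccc
Stat4 intron, chr1:52135536-52135835, plus strand: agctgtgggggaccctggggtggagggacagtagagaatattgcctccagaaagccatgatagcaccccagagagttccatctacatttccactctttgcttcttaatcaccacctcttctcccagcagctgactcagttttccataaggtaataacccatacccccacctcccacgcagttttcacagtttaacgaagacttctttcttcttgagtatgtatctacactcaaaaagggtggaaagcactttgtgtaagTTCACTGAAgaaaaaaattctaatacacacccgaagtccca
Stat5b intron, chr11:100703312-100703611, minus strand: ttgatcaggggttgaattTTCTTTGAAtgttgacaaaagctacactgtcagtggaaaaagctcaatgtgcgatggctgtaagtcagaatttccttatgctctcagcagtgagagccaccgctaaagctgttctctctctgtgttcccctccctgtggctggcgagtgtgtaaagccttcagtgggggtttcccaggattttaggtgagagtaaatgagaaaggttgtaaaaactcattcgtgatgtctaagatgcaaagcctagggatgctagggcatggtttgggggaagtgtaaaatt
Stat5a upstream region, chr11:100720248-100720547, plus strand: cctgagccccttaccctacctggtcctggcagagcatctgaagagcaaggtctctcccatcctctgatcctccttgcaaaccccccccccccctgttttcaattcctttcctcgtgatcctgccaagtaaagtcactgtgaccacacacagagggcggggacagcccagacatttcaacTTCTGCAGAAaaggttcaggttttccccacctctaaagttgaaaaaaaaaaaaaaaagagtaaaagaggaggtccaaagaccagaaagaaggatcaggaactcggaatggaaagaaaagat

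In WT cells the 6 genes differed in direction. With TGF-β + IL-4 against control, *Stat2*, *Stat5a* and *Stat5b* rose, *Stat4* and, by a smaller amount, *Stat6* fell, and *Stat3* did not pass the test. With TGF-β alone *Stat4* fell, *Stat5a*, *Stat5b* and *Stat3* rose, and *Stat6* fell. With IL-4 alone *Stat5a* rose and *Stat3* fell. A gene is said to rise or fall where limma, fitted to log2(RPKM + 1) of all genes whose mean RPKM reached 1, gave a Benjamini-Hochberg adjusted p under 0.01. Folds are on that scale and understate the change of low genes such as *Stat2*. RPKM is normalized to gene length, so levels of different genes can be set side by side. In bulk samples fewer cells with a transcript and less transcript per cell cannot be told apart.

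**Figure D1:**
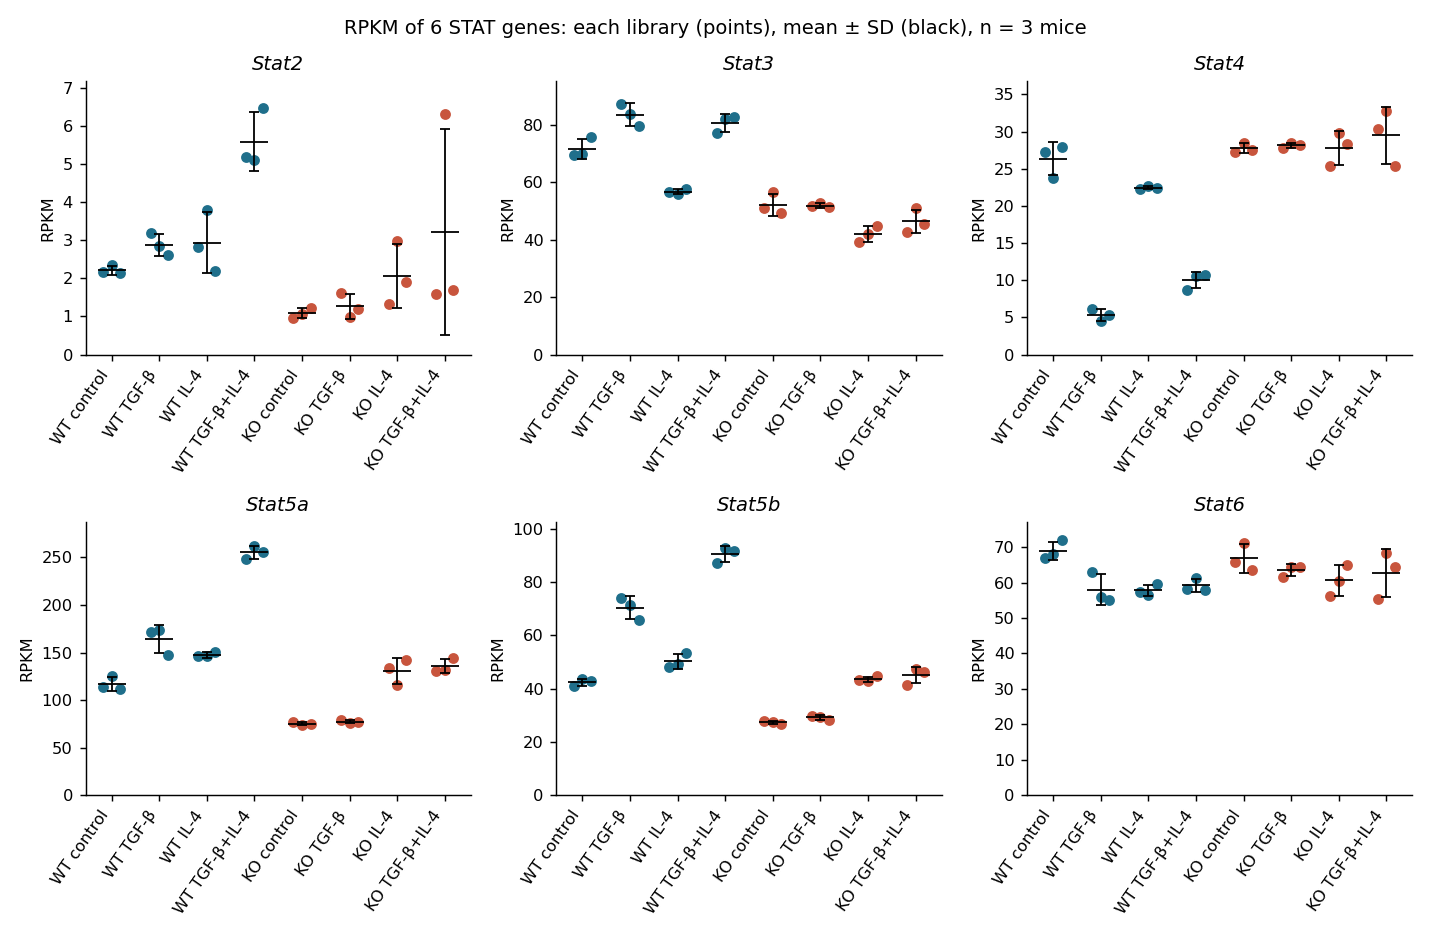
RPKM of each STAT gene (y axis, from 0) in each library (points, 3 mice side by side, blue WT, red KO) under the 8 culture conditions, with mean ± SD in black. *Stat4* falls in the WT cultures with TGF-β and not in the KO cultures, *Stat5a* and *Stat5b* are highest in WT TGF-β + IL-4, and 1 KO library stands apart for *Stat2* at 6.32 RPKM.

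*Stat4*, the STAT of IL-12 signaling, had the largest difference. Its level was 27.3, 23.8 and 27.9 RPKM in the control libraries of WT mice 1, 2 and 3, 6.10, 4.50 and 5.30 with TGF-β, 22.3, 22.6 and 22.4 with IL-4, and 8.73, 10.6 and 10.7 with TGF-β + IL-4. The order of the 4 WT cultures was control, IL-4, TGF-β + IL-4 and TGF-β, and no library overlapped the next culture. The drop was −2.12 ± 0.10 (log2 difference ± SE, n = 3; adjusted p = 5.97e-09 in limma) with TGF-β and −1.31 ± 0.10 with TGF-β + IL-4 (adjusted p = 4.51e-07), whereas the −0.22 with IL-4 alone did not pass (adjusted p = 0.245). TGF-β + IL-4 cells held 1.75-fold more *Stat4* than TGF-β cells (adjusted p = 0.000105).

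The effect of IL-4 on *Stat4* depended on the presence of TGF-β in WT cells. The test of the TGF-β by IL-4 interaction gave 1.02 ± 0.14 for *Stat4* (adjusted p = 0.00100), 1 of 6 genes against 3.59% of all 9794 genes tested. The call was lost without mouse 1 (adjusted p = 0.0279) and without mouse 3 (adjusted p = 0.0478). Interaction terms of *Stat5a* (0.30, adjusted p = 0.045), *Stat3* (0.28, adjusted p = 0.0236) and *Stat6* (0.28, adjusted p = 0.0345) did not pass, but those of *Stat3* (0.33, adjusted p = 0.00518) and *Stat6* (0.32, adjusted p = 0.00975) did under quantile scaling.

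*Stat5a* and *Stat5b*, the STATs of IL-2 signaling, moved together. *Stat5a* had the highest level of the family in every library and *Stat5b* followed its order of conditions closely. *Stat5b* measured 40.9, 43.5 and 42.7 RPKM in WT control, 48.1, 49.1 and 53.5 with IL-4, 74.2, 71.4 and 65.8 with TGF-β, and 87.0, 92.6 and 91.8 with TGF-β + IL-4. The 4 cultures did not overlap, although the step from control to IL-4 (0.24, adjusted p = 0.0179) did not pass. The rise was 0.72 ± 0.06 with TGF-β (adjusted p = 7.18e-07) and 1.08 ± 0.06 with TGF-β + IL-4 (adjusted p = 1.72e-08).

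*Stat5a* rose by a log2 difference of 0.48 ± 0.06 with TGF-β (adjusted p = 8.21e-05), 0.34 ± 0.06 with IL-4 (adjusted p = 0.00495) and 1.12 ± 0.06 with TGF-β + IL-4 (adjusted p = 3.73e-08). Its mean went from 116.9 ± 7.1 RPKM in control to 255.2 ± 6.6 with both cytokines, and only the TGF-β and IL-4 cultures overlapped each other. The TGF-β call was lost without mouse 1 (adjusted p = 0.0179) and the IL-4 call without any 1 of the mice (adjusted p between 0.0142 and 0.146) and under median-ratio scaling (adjusted p = 0.0105). Addition of IL-4 to TGF-β raised *Stat5a* 1.56-fold (adjusted p = 1.93e-05) and *Stat5b* 1.28-fold (adjusted p = 0.000668; between 0.0114 and 0.0131 with 1 mouse left out).

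*Stat2*, the interferon STAT, was the lowest of the family. WT control libraries had 2.17, 2.35 and 2.13 RPKM, TGF-β libraries 3.18, 2.83 and 2.61, IL-4 libraries 2.82, 3.79 and 2.20, and TGF-β + IL-4 libraries 5.17, 5.11 and 6.47. The TGF-β + IL-4 libraries stood above all others, and the TGF-β and IL-4 libraries overlapped. *Stat2* rose by 1.03 ± 0.13 with TGF-β + IL-4 (adjusted p = 4.02e-05). The differences with TGF-β (0.27, adjusted p = 0.163) and with IL-4 (0.27, adjusted p = 0.273) did not pass.

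*Stat3*, the STAT of IL-6 signaling, measured 69.5, 69.9 and 75.7 RPKM in WT control, 87.4, 83.6 and 79.6 with TGF-β, 56.4, 56.0 and 57.7 with IL-4, and 77.1, 81.8 and 82.8 with TGF-β + IL-4. It was highest in both cultures with TGF-β, which overlapped each other, and lowest with IL-4. The rise with TGF-β was 0.22 ± 0.05 (adjusted p = 0.00574) and the fall with IL-4 was −0.33 ± 0.05 (adjusted p = 0.000911). Without mouse 1 or mouse 2 the first call was lost (adjusted p = 0.147 and 0.0893), and the second was lost without any 1 mouse (adjusted p between 0.0131 and 0.0328). With TGF-β + IL-4 the difference of 0.17 from control did not pass (adjusted p = 0.0143), whereas under quantile scaling it was 0.24 and passed (adjusted p = 0.000644). *Stat3* was 1.41-fold higher than with IL-4 alone (adjusted p = 5.21e-06).

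*Stat6*, which transmits the IL-4 signal itself, varied least. It had 67.1, 68.1 and 71.9 RPKM in WT control, 63.0, 56.0 and 55.01 with TGF-β, 57.3, 56.5 and 59.6 with IL-4, and 58.3, 61.4 and 58.0 with TGF-β + IL-4. The control libraries were above all others, and the 3 cytokine cultures overlapped. *Stat6* fell by 0.25 on the log2 scale with TGF-β (SE 0.05, adjusted p = 0.00457) and by 0.22 with TGF-β + IL-4 (adjusted p = 0.00574), and the difference of −0.25 with IL-4 did not pass (adjusted p = 0.0123). The IL-4 difference passed under median-ratio (−0.26, adjusted p = 0.00495) and quantile scaling (−0.25, adjusted p = 0.00519), and the TGF-β + IL-4 call was lost under quantile scaling (adjusted p = 0.0155). Both calls were lost in every fit with 1 mouse left out: the adjusted p lay between 0.012 and 0.0877 for TGF-β and between 0.0207 and 0.0654 for TGF-β + IL-4.

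Against the background of all genes tested, 5 of the 6 STAT genes changed with TGF-β in WT cells (2 of them past 1.5-fold) where 14.8% of all genes did, 2 with IL-4 (none past 1.5-fold) where 3.7% did, and 5 with TGF-β + IL-4 (4 past 1.5-fold) where 31.4% did. Between TGF-β + IL-4 and TGF-β alone 4 changed against 11.3% of all genes, and between TGF-β + IL-4 and IL-4 alone 5 changed against 32.2%. These comparisons share libraries and are not independent of each other.

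**Figure D2:**
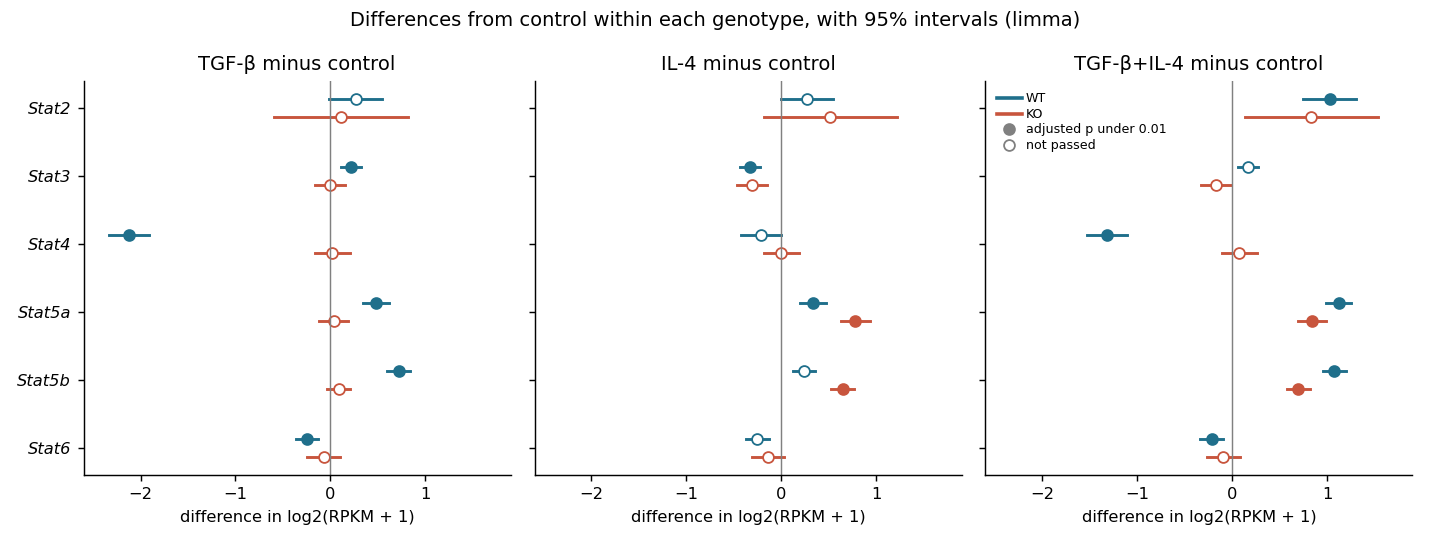
Difference from control in log2(RPKM + 1) for each STAT gene, in WT (blue) and KO cells (red), with a panel for each cytokine and one for the pair. Points are limma estimates from 3 libraries a condition, lines are 95% intervals, and filled points passed an adjusted p under 0.01. No KO point is filled with TGF-β, and *Stat5a* and *Stat5b* are the filled KO points with IL-4 and with both cytokines.

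In *Tgfbr1* KO cells the response to TGF-β was not detected for any STAT gene, and *Stat5a* and *Stat5b* rose with IL-4. With TGF-β, 0 of 6 genes changed by limma (2 of 9620 genes, 0.0208%, did, and 174 had an unadjusted p under 0.05). The 95% interval of the difference was −0.16 to 0.21 for *Stat4*, −0.12 to 0.19 for *Stat5a* and −0.04 to 0.21 for *Stat5b*. It was −0.17 to 0.15 for *Stat3* and −0.24 to 0.10 for *Stat6*. For *Stat2* it was −0.59 to 0.82, which includes the WT difference of 0.27. The genotype by TGF-β interaction of *Stat2* was also wide (95% interval −0.94 to 0.63), so these fits cannot decide whether its response differed. *Stat4* stayed between 25.3 and 32.8 RPKM in the 12 KO libraries, a range that included the WT control libraries of mice 1 and 3, with means of 27.8 ± 0.65 in KO control, 28.2 ± 0.32 with TGF-β, 27.8 ± 2.3 with IL-4 and 29.5 ± 3.8 with TGF-β + IL-4. These cultures overlapped and have no order.

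With IL-4, *Stat5a* rose 1.72-fold in KO cells (76.8, 74.3 and 74.8 RPKM in control against 133.5, 115.5 and 142.3; adjusted p = 1.29e-05) and *Stat5b* 1.57-fold (27.8, 27.7 and 26.7 RPKM against 43.1, 42.7 and 44.6; adjusted p = 1.05e-05). They were 2 of 6 genes where 3.94% of all genes changed. Addition of TGF-β left both at similar levels, 130.7, 131.9 and 144.3 RPKM for *Stat5a* and 41.5, 47.2 and 46.4 for *Stat5b*, each overlapping the IL-4 libraries. Against KO control these were again 2 of 6 genes, with 1.79-fold for *Stat5a* (adjusted p = 6.38e-06) and 1.62-fold for *Stat5b* (adjusted p = 5.39e-06), and 4.21% of all genes changed. *Stat3* was lower with IL-4 in KO cells by a difference of −0.31 that did not pass (adjusted p = 0.0235), although it passed under median-ratio (−0.32, adjusted p = 0.00985) and quantile scaling (−0.33, adjusted p = 0.00841).

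KO control cells already differed from WT control cells in 3 of the 6 genes, where 8.93% of all genes did. *Stat5a* was 0.648-fold (adjusted p = 1.13e-06), *Stat5b* 0.655-fold (adjusted p = 7.7e-08) and *Stat3* 0.731-fold (adjusted p = 2.93e-05; 0.0134 without the mice numbered 3) of the WT level. In the control culture *Stat4* and *Stat6* libraries of the genotypes overlapped, while *Stat2* libraries did not (0.961 to 1.23 RPKM in KO, 2.13 to 2.35 in WT), although its difference of −0.63 did not pass in the fit of all 24 libraries (adjusted p = 0.107). Fitted to the control libraries alone, without the KO library that stands apart for *Stat2* in another culture, the same difference passed (adjusted p = 0.00212). Each genotype came from its own 3 mice and, as taken above, its own treatment, so genotype, mouse and tamoxifen cannot be told apart.

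Under TGF-β + IL-4 the genotypes differed in 4 of 6 genes, against 32.7% of all genes. *Stat4* was 2.77-fold higher in KO cells (adjusted p = 8.72e-11), and *Stat3*, *Stat5a* and *Stat5b* were lower, at 0.579-fold (adjusted p = 2.42e-09), 0.533-fold (adjusted p = 8.27e-10) and 0.503-fold (adjusted p = 5.4e-12) of WT. *Stat2* was an exception among the libraries rather than the genes. KO mice 1 and 3 had 1.596 and 1.704 RPKM and KO mouse 2 had 6.32, the same library that had the lowest relative depth and, at 2.97 RPKM, KO mouse 2 was also the highest of the KO IL-4 libraries. With this library the *Stat2* difference between genotypes was −0.82 and did not pass (adjusted p = 0.0168), and without it the difference was −1.31 (adjusted p = 5.11e-06). In the same library *Irf9*, the DNA-binding partner of STAT2, had 25.7 RPKM against 12.6 and 13.3 in KO mice 1 and 3, *Il7r* 17.7 against 3.19 and 3.23, *Socs3* 11.05 against 4.31 and 5.22, and *Il6ra* 8.58 against 4.07 and 4.16, so it stood apart for other genes of the pathway too. These 4 were named after their values were seen. The part of depth, and of whatever sets this library apart, was not tested.

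The differences between the responses of the genotypes were tested as interactions. For the response to TGF-β they passed for *Stat4* (2.14 ± 0.13, adjusted p = 2.59e-10), *Stat5b* (−0.63 ± 0.08, adjusted p = 4.11e-06) and *Stat5a* (−0.45 ± 0.09, adjusted p = 0.00282), 3 of 6 genes against 6.53% of all genes. The *Stat5a* call was lost without the mice numbered 1 (adjusted p = 0.168) or 2 (adjusted p = 0.0139) and under median-ratio scaling (adjusted p = 0.0116). For the response to TGF-β + IL-4 they passed for *Stat4* (1.39 ± 0.13, adjusted p = 2.11e-07) and *Stat5b* (−0.38 ± 0.08, adjusted p = 0.00125), 2 of 6 genes against 10.6%, and the *Stat5b* call was lost without any 1 mouse number (adjusted p between 0.0155 and 0.0427). *Stat3* lay at the threshold (−0.34, adjusted p = 0.0103), and passed when the mouse was kept as a block (adjusted p = 0.0062), under median-ratio (adjusted p = 0.00403) or quantile scaling (adjusted p = 0.000514), with a minimum mean of 5 RPKM (adjusted p = 0.00908), or when the KO library that stood apart was left out (adjusted p = 0.00138). *Stat5a* did not pass (−0.28, adjusted p = 0.0427).

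For the response to IL-4 no STAT gene passed the interaction test, 0 of 6 by limma, with 12 of 9726 genes (0.123%) called and 735 at an unadjusted p under 0.05. The IL-4 response of *Stat5a* was 0.78 in KO and 0.34 in WT cells, a difference of 0.44 (95% interval 0.25 to 0.64, adjusted p = 0.0481), and that of *Stat5b* was 0.65 and 0.24, a difference of 0.41 (0.25 to 0.57, adjusted p = 0.0179). KO IL-4 libraries overlapped the WT control libraries in both genes.

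**Figure D3:**
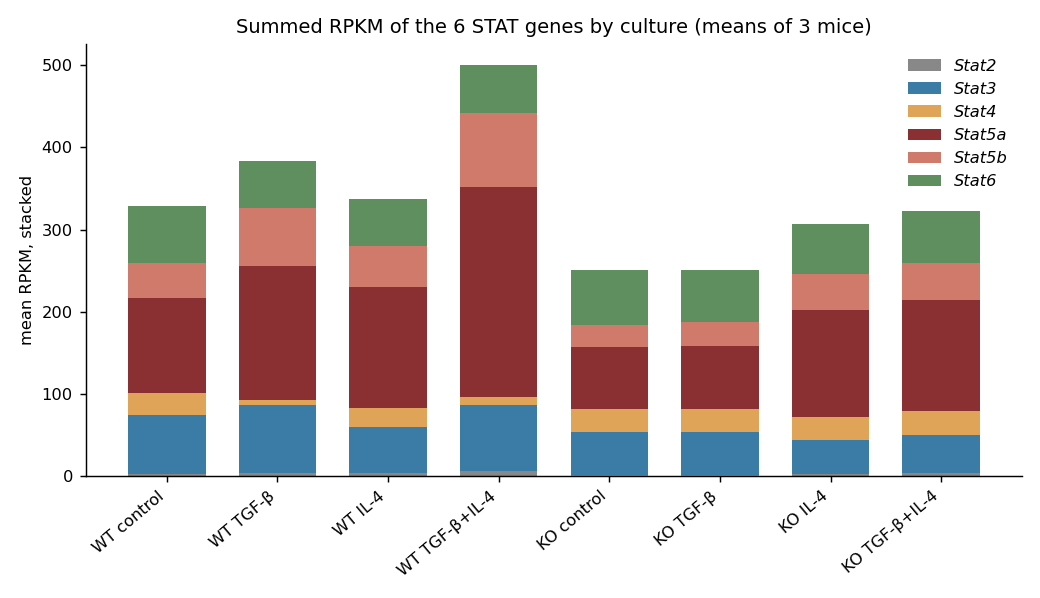
Mean RPKM of the 6 STAT genes stacked by culture (y axis, from 0, means of 3 mice). The sum is largest in WT TGF-β + IL-4, at 501 RPKM, and *Stat5a* (dark red) takes the largest share in every culture.

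The makeup of the family changed with these responses. The 6 genes summed to 328.5 ± 6.7 RPKM (SD, n = 3) in WT control, 384 ± 26 with TGF-β, 337.8 ± 7.4 with IL-4 and 501 ± 15 with TGF-β + IL-4, and to 250.5 ± 8.2, 251.1 ± 0.95, 306.3 ± 18 and 322.5 ± 18 in the KO cultures in the same order. With both cytokines *Stat5a* went from 35.6% ± 2.0 of the sum to 50.9% ± 0.35 in WT and from 30.1% ± 1.2 to 42.1% ± 2.7 in KO cells. *Stat4* went from 8.02% ± 0.75 to 1.99% ± 0.17 in WT cells and from 11.1% ± 0.23 to 9.16% ± 1.2 in KO cells. The share of *Stat6* was 20.9%, 20.5% and 21.7% in the WT control libraries against 11.8% ± 0.30 with both cytokines, and went from 26.7% ± 0.73 to 19.4% ± 0.99 in KO cells, while its own level moved little.

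Ratios within a library set the paralogs, and the Th1 against the Th2 and Th9 STAT, side by side. *Stat4*/*Stat6* was 0.406, 0.349 and 0.388 in WT control, 0.390, 0.400 and 0.376 with IL-4, 0.0969, 0.0803 and 0.0963 with TGF-β, and 0.150, 0.172 and 0.185 with TGF-β + IL-4. The 6 WT libraries with TGF-β did not overlap the 6 without it (difference in mean log2 ratio −1.64, two-sided exact permutation test, p = 0.00216, the smallest this design can give, and 0.0173 after adjustment over 8 ratio tests). In KO cells the libraries with and without TGF-β overlapped, between 0.394 and 0.547 and between 0.400 and 0.492 (exact permutation adjusted p = 0.524). IL-4 did not shift this ratio in either genotype past the threshold (exact permutation adjusted p = 0.524 in WT and 0.256 in KO). Both arms of the IL-4 test in WT cells pooled cultures with and without TGF-β, which differed widely. That test therefore cannot decide on a shift confined to the TGF-β cultures. Within those, the WT ratio was 0.0803 to 0.0969 with TGF-β alone and 0.150 to 0.185 with TGF-β + IL-4, without overlap.

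*Stat5a*/*Stat5b* stayed between 2.23 and 3.19 in all 24 libraries. It was lowest with TGF-β alone in WT cells (2.31, 2.43 and 2.23) and below all other WT libraries there, with 2.61 the lowest of those. The libraries with IL-4 had a mean log2 ratio 0.19 above those without in WT (exact permutation p = 0.0216, adjusted p = 0.0577) and 0.15 above in KO cells (exact permutation p = 0.0130, adjusted p = 0.0520), and neither passed 0.05 after adjustment. When labels were permuted within each mouse, as a replicate block, the adjusted p of the exact test was 0.0494 in WT and 0.037 in KO cells. TGF-β differences were −0.15 in WT (exact permutation adjusted p = 0.147) and −0.02 in KO cells (exact permutation adjusted p = 0.669).

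**Figure D4:**
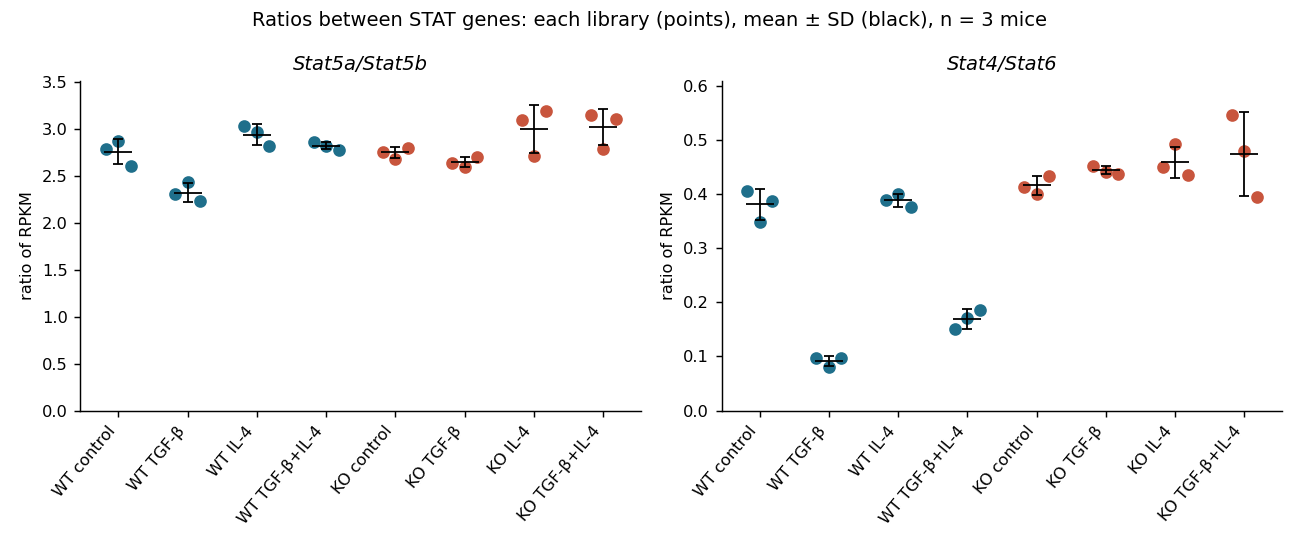
Ratio of RPKM of *Stat5a* to *Stat5b* (left) and of *Stat4* to *Stat6* (right) in each library (points, blue WT, red KO) with mean ± SD of 3 mice in black, both axes from 0. *Stat4*/*Stat6* is below 0.19 in the 6 WT libraries with TGF-β and above 0.34 in the other 18.

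The genes around the STATs in the pathway were taken from a list of 58 receptors, kinases, inhibitors, partners and targets, of which 54 were tested in WT and 53 in KO cells. In WT cells 11 rose and 14 fell with TGF-β, where 14.8% of all genes changed (median difference −0.02, against 0.01 over all genes). With IL-4, 7 rose and 6 fell against 3.7% of all genes (median 0.03, against 0.01), and with TGF-β + IL-4, 20 rose and 12 fell against 31.4% (median 0.16, against 0.02). In KO cells 1, *Foxp3*, changed with TGF-β where 0.0208% of all genes did, 8 rose and 5 fell with IL-4 (3.94%), and 10 rose and 4 fell with TGF-β + IL-4 (4.21%). The members' own upstream kinases moved little. *Jak1* rose with TGF-β + IL-4 (51.4 ± 3.5 to 62.9 ± 4.3 RPKM, adjusted p = 0.00194) and *Jak2* fell with TGF-β (5.76 ± 0.33 to 4.26 ± 0.54 RPKM, adjusted p = 0.00992), while *Jak3* and *Tyk2* passed in none of the 3 WT comparisons with control.

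Among receptors, *Il12rb2*, the signaling chain of the IL-12 receptor that acts through STAT4, fell with TGF-β in WT cells from 11.9 ± 1.1 to 4.95 ± 0.10 RPKM (adjusted p = 9.72e-07), and *Il6ra*, which acts through STAT3, rose with TGF-β + IL-4 from 6.87 ± 0.16 to 19.1 ± 0.79 (adjusted p = 1.45e-08). *Il4ra*, the IL-4 receptor chain that recruits STAT6, rose with IL-4 from 50.1 ± 2.1 to 72.1 ± 5.0 RPKM in WT (adjusted p = 6.3e-05) and from 43.3 ± 2.0 to 90.8 ± 3.9 in KO cells (adjusted p = 7.04e-05). *Cish* and *Socs1*, inhibitors that STAT5 and STAT6 induce, rose with IL-4 in both genotypes, *Cish* by 0.84 (adjusted p = 0.000718) and *Socs1* by 0.82 (adjusted p = 4.42e-07) on the log2 scale in WT and by 1.58 (adjusted p = 3.3e-06) and 1.61 (adjusted p = 7.01e-09) in KO cells. *Socs2* went the other way with IL-4, by −0.68 in WT (adjusted p = 2.39e-05), and rose by 2.61 with TGF-β (adjusted p = 2.5e-11).

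Targets of the lineage STATs changed as well. *Ifng*, a STAT4 target of Th1 cells, fell with TGF-β from 65.0 ± 5.9 to 16.5 ± 2.6 RPKM in WT cells (adjusted p = 4.19e-07). In KO control cells *Ifng* was already low, at 11.7 ± 3.4 RPKM (−2.40 against WT control, adjusted p = 1.3e-08), and so was *Il12rb2*, at 3.93 ± 0.39 (−1.39, adjusted p = 1.29e-07), whereas *Stat4* libraries of the genotypes overlapped there. *Gata3*, the Th2 factor downstream of STAT6, rose with IL-4 from 21.2 ± 1.6 to 71.8 ± 3.2 RPKM in WT (adjusted p = 6.7e-08) and from 8.92 ± 0.58 to 67.1 ± 7.2 in KO cells (adjusted p = 1.26e-08), and fell with TGF-β in WT cells (adjusted p = 5.79e-07). *Foxp3*, a target of STAT5, rose with TGF-β from 5.70 ± 0.45 to 64.3 ± 8.2 RPKM in WT (adjusted p = 3.06e-11) and, from a lower level, from 1.43 ± 0.06 to 4.21 ± 0.47 in KO cells (1.09, adjusted p = 0.00162), so for this gene a difference with TGF-β was measured in KO cells too. The *Foxp3* response was smaller in KO cells (interaction −2.19, adjusted p = 1.68e-10). *Isg15*, an interferon target of STAT2, fell by 1.56 on the log2 scale with TGF-β (adjusted p = 2.91e-06) and by 0.75 with TGF-β + IL-4 (adjusted p = 0.000829), the culture in which *Stat2* rose, while *Ifit1*, another interferon target, differed by −0.10 there (adjusted p = 0.731). *Ifit3*, also an interferon target, was higher by 0.91 with TGF-β + IL-4 but did not pass in limma (adjusted p = 0.0786). *Irf9*, the partner of STAT2, rose by 0.29 in that culture (limma adjusted p = 0.00203). *Batf*, a factor of Th9 and Th17 cells, rose by 0.69 with IL-4 in WT cells (adjusted p = 5.04e-05). Its differences with TGF-β + IL-4, the Th9 condition (0.08, limma adjusted p = 0.369), and with TGF-β (−0.22, limma adjusted p = 0.0435) did not pass. *Bcl6*, the factor of follicular helper T cells, rose with TGF-β + IL-4 from 1.73 ± 0.09 to 4.14 ± 0.21 RPKM (adjusted p = 1.09e-06).

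Across all 24 libraries, which share mice and cultures, *Stat5a* and *Stat5b* had a Pearson correlation of 0.97 in log2(RPKM + 1), and *Stat4* was inversely related to *Stat5b* and to *Stat3* (−0.78 each). By the same measure the genes most like *Stat4* included *Kdm2b* (0.970) and *Gbp4* (0.964), those most like *Stat5a* were *Spsb1* (0.982), *Prnp* (0.978) and *Slc16a6* (0.967), and those most like *Stat5b* were *Agpat3* (0.979), *Rbpj* (0.975) and *Prps1* (0.973). *Uba7* (0.951), *Dtx3l* (0.945) and *Ubac2* (0.924) were nearest to *Stat2*, and *Ifi35* (0.969), *Fcrl1* (0.962) and *Abcg1* (0.962) to *Stat3*. *Stat6*, with the smallest range, had the weakest neighbours, *Aamp* (0.896), *Psmd2* (0.868) and *Snd1* (0.824).

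DNase-seq was made in 4 of the conditions with 1 library each, so the DHS comparisons have no replicate check. Peaks had been called on each library alone, and the lists held 44298 and 33880 DHSs for WT control and TGF-β + IL-4 and 33665 and 27145 DHSs for the same KO cultures. Over the 6 genes and 2 kb before their starts, 45 sites held a DHS in at least 1 list. Of these, 18 (40%) were in all 4 lists and 14 (31.1%) in 1 list, against 43.2% and 27.8% of the 50176 sites that the same merging gave for all DHSs. The WT lists had 38 (control, 84.4%) and 30 (66.7%) of them and the KO lists 28 (control, 62.2%) and 22 (48.9%), and of all merged sites the lists had 87.3%, 66.4%, 66.0% and 52.9% in the same order. These shares of the family's sites lay near those of all sites.

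*Stat4* had 17 of the 45 sites, and 16 were called in WT control, against 8 with both cytokines in WT cells, 8 in the KO control list and 6 in the other KO list. No list had a DHS within 1 kb of its annotated start. The nearest to a coding transcript start lay 394 bp into the shorter transcript, in an exon, and was called in the WT control list (4.42-fold enrichment over background) and the list of KO cells with both cytokines (3.15-fold). An intronic site 79287 bp from the gene start had 8.22-fold enrichment in WT control, within the top 22.2% of that list, and was otherwise called in KO TGF-β + IL-4 only (3.94-fold, at 76.2%). Both intronic windows with TTCNNNGAA printed above were called in WT control only, at 3.50-fold and 5.16-fold. The 4 sites in all lists included 1 at 113537 bp whose enrichment was 9.79-fold in WT control cells and 6.37-fold in the KO cells given both cytokines.

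**Figure D5:**
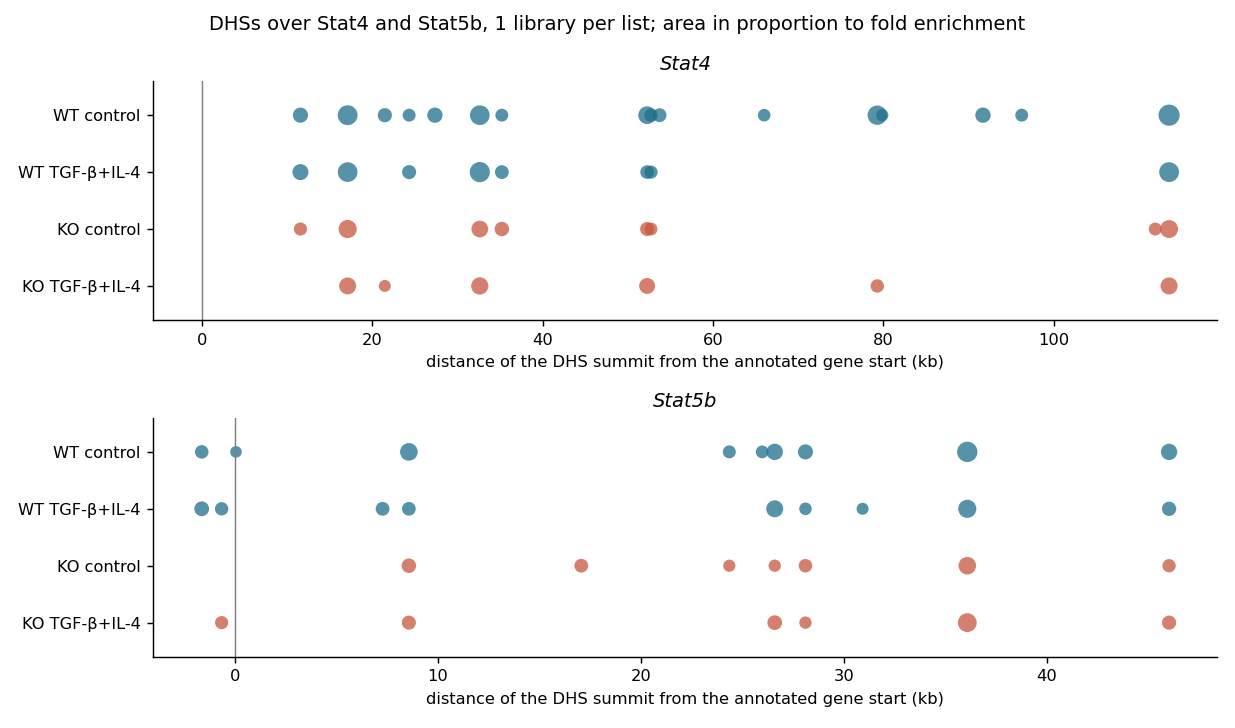
DHSs over *Stat4* (top) and *Stat5b* (bottom) in the 4 DNase-seq lists (rows, 1 library each), placed by the distance of the summit from the annotated gene start in kb, with circle area in proportion to the fold enrichment given by the peak caller. WT control has 16 *Stat4* sites and the other lists 8, 8 and 6.

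*Stat5b* had 13 sites, 9 in each WT list and 7 (control) and 6 in the KO lists, and 5 were in all 4 lists, among them the printed intronic window with TTCNNNGAA (6.83-fold in WT control). Before its start, a site at −1627 bp was called in both WT lists and in no KO list, and a site at −646 bp in both TGF-β + IL-4 lists and in no control list (3.91-fold in WT, 3.80-fold in KO). *Stat5a* had 3 sites. The one 48 bp into a coding transcript was called in all lists, at 4.67-fold to 8.35-fold, and the upstream window printed above, at −267 bp, in WT TGF-β + IL-4 only (3.61-fold, at 89.0% of its list). These upstream sites ranked between 59.9% and 89.0% of their lists. The depth of the libraries is unknown, and its part in the sites that are missing from a list was not tested.

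The starts of *Stat2*, *Stat3* and *Stat6* were open in all 4 lists. The *Stat2* site at −120 bp had 14.1-fold enrichment in WT control, within the top 1.8% of the list, and 11.6-fold with both cytokines, against 10.4-fold and 7.25-fold for the same cultures of KO cells, and was the only DHS of that gene. The *Stat3* site at −79 bp ranged from 8.05-fold to 11.5-fold, and the *Stat6* site at −22 bp from 5.11-fold to 6.12-fold. The lists are not on a common scale, so these values rank a site within its list and are not ratios of accessibility between conditions.

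TTCNNNGAA, which reads the same on both strands, was present in 3 of the 45 windows of 300 bp around these summits (6.67%), against 10.3% of the windows of all WT control DHSs and 9.14% to 10.0% in the other lists. TTCNNNNGAA, also its own reverse complement, was in 17.8% of the 45 windows, against 7.85% for WT control and 6.95% to 8.67% for the other lists. Of 9 RefSeq promoters of the 6 genes in GRCm38.p6, each from 250 bases before to 50 after a start, 0 held TTCNNNGAA, against 8.3% of 32851 promoters.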

How the data were processed

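RNA-seq libraries were made by the Smart-seq2 method from polyA RNA. Per the study's methods the authors mapped them with Bowtie2 (build mm9), dropped low-quality alignments and duplicates, and deposited RPKM per gene, normalized to gene length and mapped reads. Read totals are unknown, and relative depth was taken from the steps between low RPKM values. For DNase-seq the authors used MACS for narrow peaks, library by library, and the deposited lists give a fold enrichment (a ratio over background) and −log10 of the q-value. Tool versions are not given in the sources used here.

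Columns were read in order of library number. log2(RPKM + 1) was fitted with limma 3.58.1 in R 4.3.3 (trend on mean expression) for genes whose mean RPKM reached 1, on the 12 WT, the 12 KO or all 24 libraries, with a threshold of adjusted p under 0.01. The paper's fold threshold of 1.5 is given as a count. RPKM are not counts, so no count model was used, and edgeR's test, which the authors name, was not repeated. The script was tested on simulated data. Ratios were compared by exact permutation tests, adjusted over 8 tests at 0.05. DHSs were assigned with Python 3.11.15 and pandas 2.3.3, and motifs were read from the mm9 sequence.

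Same-numbered libraries of a genotype were taken to come from the same mouse, which their labels do not state. The deviations of such pairs from their group means correlated between −0.09 and 0.55 in WT (median 0.06) and between −0.30 and 0.42 in KO libraries (median 0.19). The mouse was tried as a block. The genes named from the pathway list were the JAKs and those with the largest differences past the threshold in each WT comparison with control, plus defining genes of a lineage, and the 3 nearest genes by correlation were named for each member, except 1 that is not reported here. The members and gene lists were chosen with earlier results of these data known. Alternatives were the headings as written, the 8 WT libraries identified by counts, pseudocount 0.1, no filter or a minimum of 5, median-ratio or quantile scaling, the compared groups only, no trend, other thresholds, leaving out each mouse, −log10 q of at least 5 and a window of 2 kb for DHSs. Leaving out KO TGF-β + IL-4 mouse 2 was added after the values were seen.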

Additional observations from a re-analysis of the deposited data

Results flagged for a closer look

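In 6 cases the response of a STAT gene differed between groups by a test of the difference itself in limma. The response to TGF-β differed between KO and WT cells by 2.142 for *Stat4* (adjusted p = 2.59e-10), by −0.447 for *Stat5a* (adjusted p = 0.00282) and by −0.631 for *Stat5b* (adjusted p = 4.11e-06), in log2 units and as KO minus WT. The response to TGF-β + IL-4 differed by 1.392 for *Stat4* (adjusted p = 2.11e-07) and by −0.380 for *Stat5b* (adjusted p = 0.00125). Within WT cells the response of *Stat4* to IL-4 was 1.022 higher in the presence of TGF-β than in its absence (adjusted p = 0.00100). Groups held 3 libraries each, too few for a test of single libraries that stand apart.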

How the results depend on the processing

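All 38 differences called for a STAT gene kept their direction in all 515 results under alternatives other than the headings, and kept the call in 459. With the mouse as a replicate block the number of STAT genes called went from 2 to 3 for the genotype by TGF-β + IL-4 interaction (*Stat3*, adjusted p = 0.0062), and the block changed no other call of limma.

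With the columns as headed, 0 STAT genes were called in every comparison, and the signs of these differences turned: *Stat3* (0.006), *Stat4* (0.251) and *Stat6* (0.015) with IL-4 in WT, *Stat2* for TGF-β + IL-4 against IL-4 (−0.029), the TGF-β by IL-4 interactions of *Stat3* (−0.085), *Stat4* (−0.123), *Stat5a* (−0.17) and *Stat6* (−0.088), *Stat5a* (−0.043) and *Stat5b* (−0.031) with TGF-β and *Stat3* (0.01) with IL-4 in KO, and the genotype by IL-4 interaction of *Stat5a* (−0.03). Of the ratios, *Stat5a*/*Stat5b* turned with IL-4 in WT (−0.002) and with TGF-β in KO (0.050), *Stat4*/*Stat6* turned with TGF-β (−0.042) and IL-4 (−0.012) in KO, and *Stat4*/*Stat6* with TGF-β in WT was −0.644 and did not pass.

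In the 8 WT libraries identified by counts, 3 STAT genes were called with TGF-β and 0 with IL-4. With IL-4 in WT the count of 2 became 1 without a filter, with the compared groups only and with no trend, 4 at an adjusted p under 0.05 and 0 with the fold threshold. With TGF-β in WT the count of 5 became 3 with the compared groups only and 2 with the fold threshold. Scaling also moved single calls: with IL-4 in WT *Stat6* gained its call under median-ratio and quantile scaling and *Stat5a* lost it under the former, with TGF-β + IL-4 in WT *Stat3* gained and *Stat6* lost it under quantile scaling, with IL-4 in KO *Stat3* gained it under both, and the *Stat5a* genotype by TGF-β interaction lost it under median-ratio scaling, while that of *Stat3* with TGF-β + IL-4 gained it under both. The TGF-β by IL-4 interaction called 3 under quantile scaling and 4 at 0.05, the genotype by IL-4 interaction 2 at 0.05, and the genotype by TGF-β + IL-4 interaction 4 at 0.05 and 1 with the fold threshold. With 1 mouse left out, the counts ranged from 2 to 4 (TGF-β, WT), were 0 (IL-4, WT), ranged from 2 to 3 (TGF-β + IL-4 against TGF-β, main count 4), from 0 to 1 (TGF-β by IL-4) and were 1 (genotype by TGF-β + IL-4). The WT *Stat4*/*Stat6* ratio with TGF-β, −1.62 in the 8 identified libraries and between −1.70 and −1.59 with 1 mouse left out, then missed the threshold (adjusted p between 0.114 and 0.229, with 4 libraries against 4 and so fewer permutations). The same ratio in KO ranged from −0.008 to 0.128. *Stat5a*/*Stat5b* with IL-4 passed with the block (0.187 in WT, 0.155 in KO) and with pseudocount 1 (0.189 and 0.165). No scaling moved the median of all genes by over 0.051. The number of DHSs rises with depth, which is unknown for these lists.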
